A study of Arabidopsis thaliana with 8 samples.

Results

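Col-0-L and Col-0-S are the wild-type arrays of this series, 2 of its 8, and they were compared over all 22746 probe sets other than the array's own controls. Both held RNA of Arabidopsis thaliana Col-0, the common laboratory accession, taken from rosettes of plants that were 35 days old and just starting to bolt, with stem and flowers removed. Plants grew at 70% humidity, at 22 °C by day and 19 °C by night, with 14 hours of light and 8 hours of dark. They stood on an autoclaved mix of turf, vermiculite and sand with fertiliser, to which the insecticide imidacloprid had been added. The labels give the same growth and sampling for the insertion plants. The endings L and S are not explained in the labels and were read only as names. The remaining 6 arrays each held a different WRKY T-DNA knockout line, namely KO-56, KO-02, KO-30, KO-07, KO-40 and KO-54. The labels do not say which WRKY gene each insertion hit. These arrays were used here only to show how far arrays of the series lie from each other. Each wild-type sample was measured on 1 array, so every difference below is a size without a replicate check, and no test was made. The labels do not say whether the arrays came from separate sets of plants.

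A rosette at this stage consists largely of expanded green leaves. Its most abundant messages serve photosynthesis, whose protein complexes are built from subunits encoded partly in the plastid genome and partly in the nucleus. Plastid genes are read in blocks of neighbours from shared promoters, while nuclear genes have promoters of their own. Leaf growth depends on wall-loosening proteins such as expansins and xyloglucan endotransglucosylase/hydrolases (XTH), and leaf defence on small peptides such as defensins and thionins that respond to jasmonate and ethylene.

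The arrays resembled each other closely in scale and RNA quality. Their median signals were 38.6 in Col-0-L against 37.2 in Col-0-S, within the 36.0 to 39.1 of the lines, and the trimmed mean was the same on all 8 arrays (100.01). For actin, the 3' probe set was brighter than the 5' one, a ratio that grows as RNA degrades, by a factor of 9.98 in Col-0-L against 10.9 in Col-0-S, with 8.41 to 29.5 in the lines. The GAPDH ratio was 1.23 in Col-0-L against 1.41 in Col-0-S, and the ubiquitin ratio 2.68 and 2.41 in the same order of arrays. The 25S ribosomal RNA control had a signal of 250.4 in Col-0-L against 303 in Col-0-S.

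Green-leaf markers, which the photosynthesis lists below also hold, were bright on both arrays. The 5 measured markers of green mesophyll summed to a signal of 15538 in Col-0-L against 12957 in Col-0-S, with 11298 to 13267 in the lines. LHCB4.3 went the other way, with 467 in Col-0-L against 577 in Col-0-S, and Col-0-L was below all lines. The others were higher in Col-0-L as deposited. After quantile normalization, which gives all arrays the same distribution of signals, their log2 differences ran only from -0.05 for LHCB4.1 to 0.04 for RCA. Markers of other tissues were dim. The 3 root markers summed to 77.8 in Col-0-L against 66.4 in Col-0-S, with 42.6 to 59.8 in the lines. Only PYK10 was higher in Col-0-L (58.4 against 42.3 in Col-0-S). EXPA7 (8.09 in Col-0-L against 10.55 in Col-0-S) and EXPA18 (11.3 and 13.6) were lower. The 2 flower and pollen markers summed to 27.0 and 19.6, the 2 vascular and stem markers to 24.6 and 18.4, and the 1 seed marker to 13.2 and 14.4, each time with Col-0-L given before Col-0-S. The pollen regulator AMS had 7.63 in Col-0-L against 0.702 in Col-0-S. Guard-cell lineage genes did not point one way: the terminal regulator FMA had 60.6 in Col-0-L against 31.2 in Col-0-S, while SPCH, which starts the lineage, had 4.19 and 8.57, and MUTE 0.560 and 1.69. The part of tissue makeup in the differences below was not tested, and in bulk RNA fewer cells of a type and less RNA per cell cannot be told apart.

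Most of the transcriptome was nearly the same on the wild-type arrays. Differences were taken on the scale log2(signal + 5), as Col-0-L minus Col-0-S, where a difference of 1 is 2-fold. The added 5 pulls the differences of dim probe sets towards 0. Across probe sets the arrays correlated with r = 0.984, and the median difference was 0.02, with 12057 probe sets higher and 10689 lower in Col-0-L. With the 5 added to each signal, the arrays lay within 1.1-fold of each other for 40.1% of probe sets and within 1.2-fold for 64.5%. They lay within 1.5-fold for 88.5% and within 2-fold for 97.1%. The signals of dim probe sets themselves can lie further apart. The median size of a difference, whatever its direction, was 0.18. Differences ran from -2.36 to 2.23.

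At least 2-fold higher in Col-0-L were 344 probe sets, 1.51% of all, and at least 2-fold lower were 307, or 1.35%. Nearly all of them were dim. When the probe sets were cut into 5 equal level groups by their mean over the 8 arrays, the dimmest 2 groups held 332 of the 344 higher ones (96.5%) and 278 of the 307 lower ones (90.6%). The share past 2-fold in either direction was 5.45% and 7.96% in these groups and 0.506%, 0.242% and 0.154% in the next ones up to the brightest. Among the 9098 probe sets of the brightest 2 level groups, 4 (0.044%) were at least 2-fold higher and 14 (0.154%) at least 2-fold lower in Col-0-L. At 1.5-fold these became 53 (0.583%) and 116 (1.28%), so the bright probe sets that differed were more often lower in Col-0-L. The threshold itself marks no break: AT5G57480 (1.015) lay just inside and AT4G29490 (0.998) just outside 2-fold higher, and AT4G16563 (-1.001) and AT2G24255 (-0.993) did so for 2-fold lower.

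**Figure D1:**
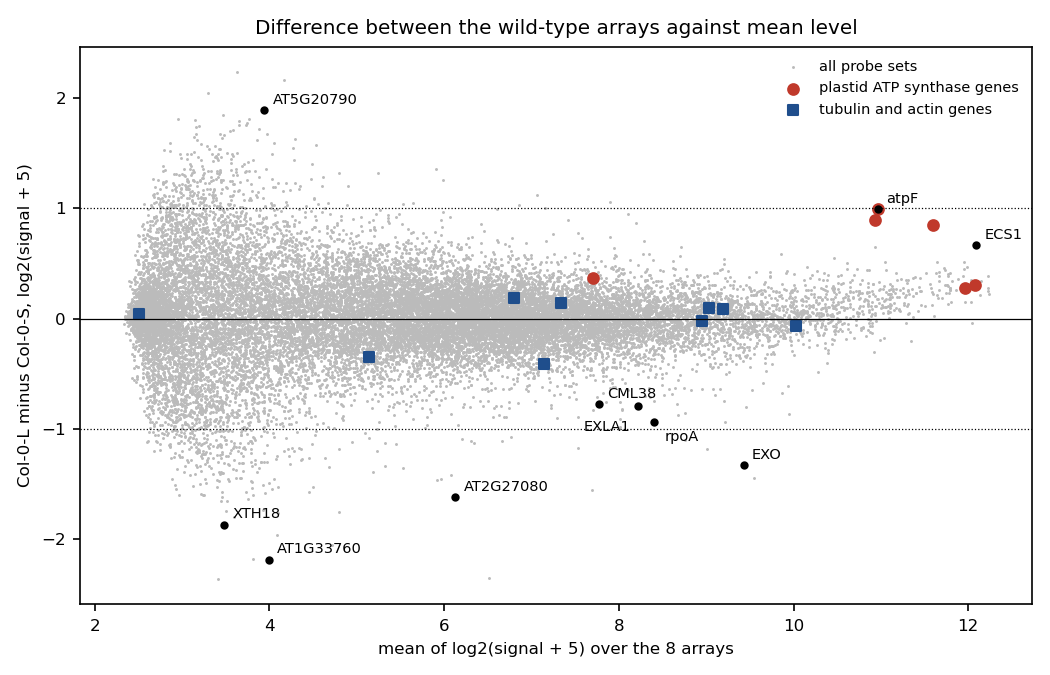
Difference between the wild-type arrays (vertical axis, Col-0-L minus Col-0-S in log2(signal + 5), dotted lines at 2-fold) against the mean of log2(signal + 5) over the 8 arrays (horizontal axis). Grey points are the 22746 probe sets, red circles the plastid ATP synthase genes, blue squares the tubulin and actin genes, and black points are named. The spread narrows from left to right, and at the far right nearly all points lie above 0, where 97 of the 100 brightest probe sets were higher in Col-0-L.

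The wild-type arrays were no closer to each other than many arrays of different genotypes. They differed by at least 2-fold at 651 probe sets. Of the 28 possible pairs among the 8 arrays, 13 had fewer, and pairs of insertion lines ran from 443 to 1243. The difference between the wild types was larger than the whole range over the 6 lines at 2454 probe sets (10.8%), and in the brightest 2 level groups at 714 (7.85%).

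The insertion lines also give the place of each wild-type array among the 8. For the 116 bright probe sets at least 1.5-fold lower in Col-0-L, Col-0-L was the lowest of the 8 arrays at 85 (73.3%), and Col-0-S was the highest at 29. Over all bright probe sets Col-0-L was the lowest at 11.4% and Col-0-S the highest at 8.35%. For the 53 bright probe sets at least 1.5-fold higher in Col-0-L the sides were more even: Col-0-L was the highest array at 33 (62.3%) and Col-0-S the lowest at 29 (54.7%), against 14.1% and 9.43% over all bright probe sets. Since these probe sets were picked for the gap between the wild types, 1 of the 2 had to lie towards an edge, and the shares are a description only. Set against the median of the lines, Col-0-L was at least 1.5-fold above it at 22 bright probe sets and below it at 107, while Col-0-S was above it at 31 and below it at 50.

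Of the bright genes lower in Col-0-L, EXO had the largest difference, followed by the plastid gene rpoA, described further on. EXO (EXORDIUM), a cell wall protein gene known to promote leaf growth under brassinosteroids, had a signal of 378 in Col-0-L against 957 in Col-0-S, with 502 to 1420 in the lines, and differed by -1.33. Col-0-L was below every other array, while Col-0-S lay inside the range of the lines. Further wall genes had smaller differences. The expansin-like gene EXLA1 had 199 in Col-0-L against 349 in Col-0-S, with 210.0 to 650.4 in the lines (-0.79). CSLC04, a glucan synthase gene for the xyloglucan backbone, had 357 in Col-0-L against 555 in Col-0-S, with 338 to 501 in the lines (-0.63). There the position was the opposite one, with Col-0-S above all 6 lines and Col-0-L inside their range.

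Some genes of stress and defence were lower in Col-0-L as well, while the lists they belong to were mixed or level. The calcium sensor gene CML38 had 115 in Col-0-L against 200.2 in Col-0-S, with 146 to 310.0 in the lines (-0.77). MSRB5, which repairs oxidised methionine, had 276 in Col-0-L against 447 in Col-0-S, with 369 to 425 in the lines (-0.68), so that the wild types lay on either side of all 6 lines. The antifungal defensin gene PDF1.2 had 368 in Col-0-L against 592 in Col-0-S (-0.68), and its close copy PDF1.2b 367 and 512 (-0.48). Both ran far higher in some of the lines, up to 2945 for PDF1.2 and 2525 for PDF1.2b, and Col-0-L was below all 6 lines for each. Probes of near-identical copies can share signal, so these genes are not independent of each other.

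The other genes among the 12 in the ranking that EXO led carry only a locus code in the annotation used here. They were AT2G41640 (91.3 in Col-0-L against 175 in Col-0-S), AT2G33850 (176 and 305), AT3G28220 (151 and 258), AT4G29780 (173 and 295), AT1G68580 (218 and 367), AT2G34510 (239.8 and 393) and AT3G04890 (107 and 175). Their differences ran from -0.90 for AT2G41640 to -0.69 for AT3G04890. For each of these genes Col-0-L was also below all 6 lines.

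**Figure D2:**
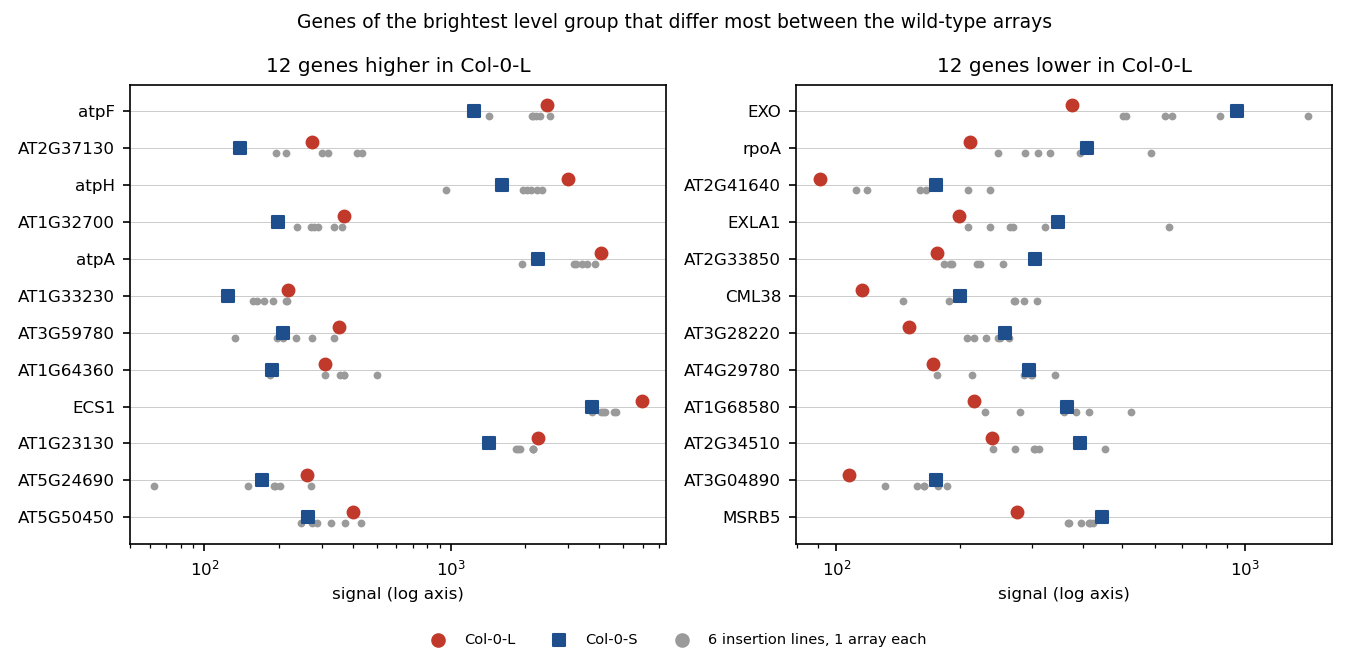
Signals (horizontal, logarithmic axis) of the genes in the brightest level group with the largest differences, 12 higher (left) and 12 lower (right) in Col-0-L. Only probe sets with 1 listed gene were ranked. Red circles are Col-0-L, blue squares Col-0-S and grey points the 6 insertion lines, 1 array each. On the right Col-0-L lies below all lines for the genes shown, as for EXO with 378 in Col-0-L against 502 in the lowest line, while on the left either wild type can be the outer array.

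The largest differences among bright genes higher in Col-0-L, again ranked only where the probe set had 1 listed gene, were those of plastid genes and of locus codes. The plastid genes are described further on and the locus codes in the next paragraph. ECS1, a cell wall protein gene linked to the response to a bacterial pathogen, had 5947 in Col-0-L against 3747 in Col-0-S, with 3731 to 4700 in the lines (0.67). Col-0-L was above all 6 lines and Col-0-S at their lower edge. Its difference was 0.33 after quantile normalization, which gives all arrays the same distribution of signals. BCAT4, which starts chain elongation of methionine for aliphatic glucosinolates, had 1888 in Col-0-L against 1290.0 in Col-0-S, with 1197 to 1493 in the lines (0.55). The peroxidase gene PRXR1 had 5085 in Col-0-L against 3670 in Col-0-S, with 3521 to 4419 in the lines (0.47). For BCAT4 and PRXR1, too, Col-0-L was the highest array and Col-0-S lay among the lines. PRXR1 was among the 100 brightest probe sets, of which 97 were higher in Col-0-L, with a median difference of 0.26.

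Among locus codes of the brightest level group, AT2G37130 had 273 in Col-0-L against 139 in Col-0-S, with 195 to 435 in the lines (0.95), so that here Col-0-S was the array outside the range. AT1G32700 (368 and 199), AT1G33230 (218 and 125) and AT1G23130 (2254 and 1433) had Col-0-L above and Col-0-S below all 6 lines. AT3G59780 (350.2 and 208), AT1G64360 (308 and 188), AT5G24690 (262 and 172) and AT5G50450 (399.5 and 264) completed the 12, with Col-0-L again given before Col-0-S and differences of 0.59 to 0.74.

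The largest differences of all belonged to dim genes, ranked here too only where the probe set had 1 listed gene. Of the 12 genes with the largest positive differences among those above the 30th percentile of mean level, 11 lay in the dimmest 2 level groups, and of the 12 with the largest negative ones, 8 did. AT5G20790 led the higher ones with 35.5 in Col-0-L against 5.96 in Col-0-S (1.89), and it had at most 15.8 in the lines. AtVEX1, also named SWEET5 and one of the SWEET sugar transporters, had 15.6 in Col-0-L against 1.26 in Col-0-S (1.72), with up to 17.0 in the lines. FU (FUSED), a kinase gene, had 17.7 in Col-0-L against 3.83 in Col-0-S (1.36), and NDB3, an alternative NAD(P)H dehydrogenase gene, 15.4 and 3.40 (1.28). The others were AT1G62030 (1.54), AT5G15060 (1.49), AT1G60200 (1.40), AT4G28230 (1.32), AT5G13590 (1.29), AT1G29195 (1.27), AT5G22430 (1.27) and AT3G05470 (1.23). The highest signal any of the 12 reached in Col-0-L was 43.6, for AT4G28230.

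Of the 12 largest negative differences, AT1G33760 had 0.653 in Col-0-L against 20.7 in Col-0-S (-2.18), and 0.964 to 35.3 in the lines, a range wider than the gap on the log scale. AT2G27080 was the brightest of them in Col-0-S, with 30.5 in Col-0-L against 104 in Col-0-S (-1.62), and 41.6 to 92.4 in the lines. For this gene the wild types enclosed all 6 lines. AT1G50040 had 25.7 in Col-0-L against 78.9 in Col-0-S (-1.45), and AT4G33550 28.3 and 80.1 (-1.35), with lines reaching 135 and 100.3. The remainder were AT3G44440 (-1.76), AT2G41800 (-1.75), AT5G49470 (-1.57), AT5G53740 (-1.54), AT4G39930 (-1.49), AT4G13120 (-1.45), AT5G45630 (-1.35) and AT3G47980 (-1.35). All of these had signals under 8 in Col-0-L. Calls of presence were not used here, so whether such dim probe sets were above background is not known.

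Gene lists were then compared by the median difference of their members. A list was called shifted where its median lay at least 0.5 from that of all probe sets with at least 3 in 4 members on that side, level where its median size of difference was below 0.18 and no member was past 2-fold, and mixed otherwise. Of 69 lists, 26 were level, 42 mixed and 1 shifted. None of the 35 lists of the first set was shifted. The shifted list, the plastid ATP synthase, was split off from the plastid photosynthesis list after values had been seen.

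**Figure D3:**
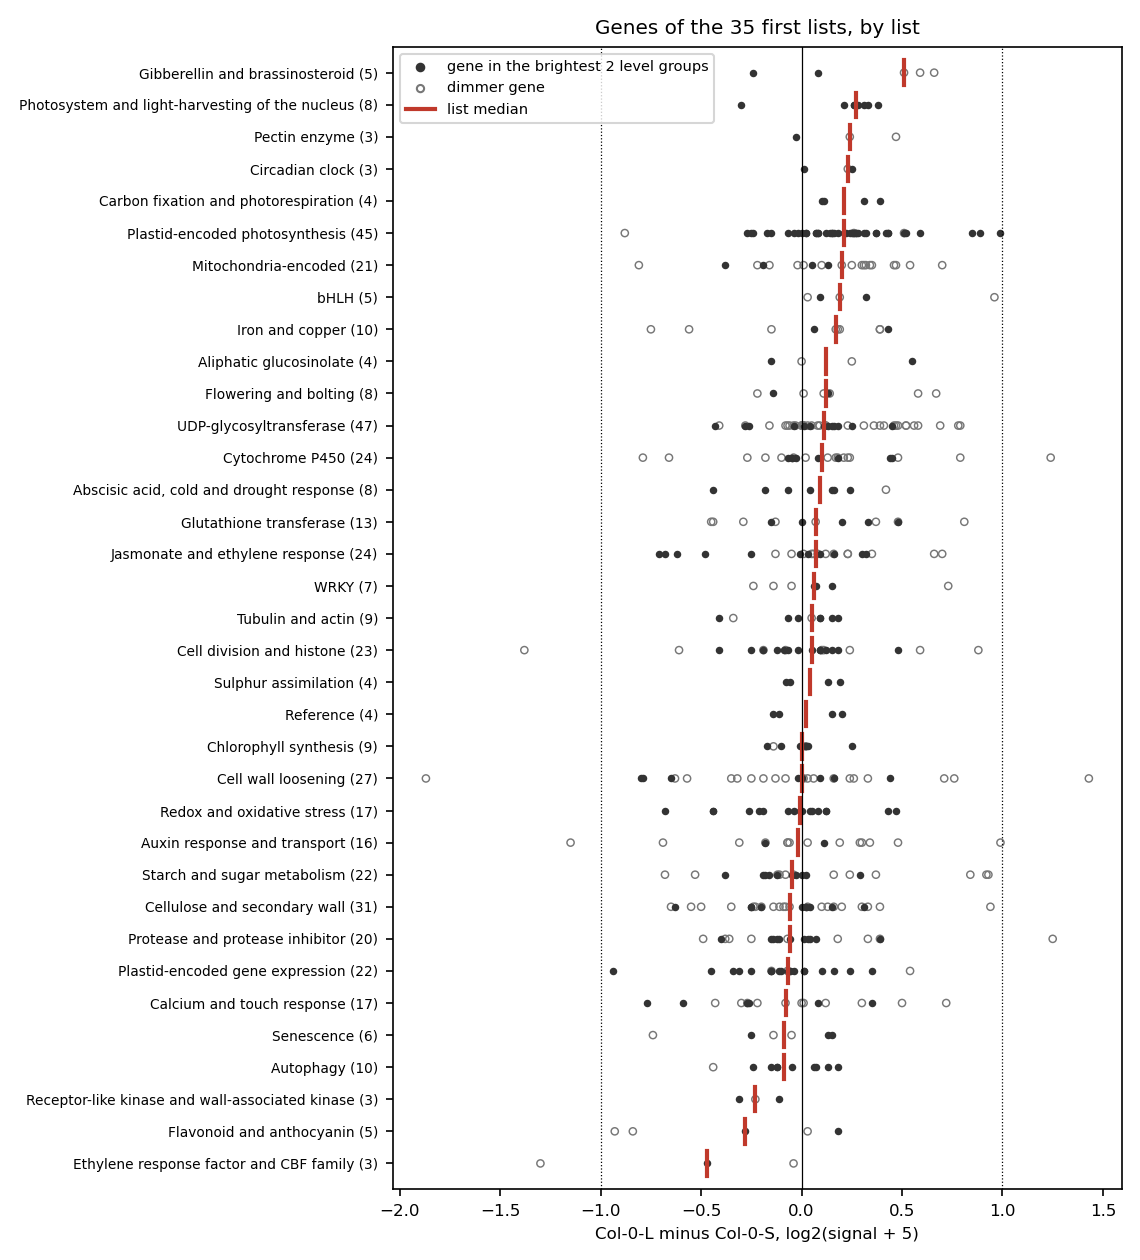
Differences (horizontal axis, Col-0-L minus Col-0-S in log2(signal + 5), dotted lines at 2-fold) of the genes of the 35 lists of the first set, 1 row per list with the number measured in brackets. Filled points are genes of the brightest 2 level groups, open points dimmer genes, and red bars list medians. Medians run from 0.51 for the gibberellin and brassinosteroid list to -0.47 for the ethylene response factor list, and the points past 2-fold are open ones.

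Chloroplast ATP synthase genes were the clearest plastid difference. This enzyme makes ATP from the proton gradient of photosynthesis, and its 6 plastid genes were all higher in Col-0-L (median 0.61). The gene atpF, for a stalk subunit, had 2466 in Col-0-L against 1238 in Col-0-S, with 1426 to 2515 in the lines (0.99). The gene atpH, for the membrane ring, had 2990.1 in Col-0-L against 1610 in Col-0-S, with 953 to 2350 in the lines (0.89). The gene atpA, for a catalytic-head subunit, had 4060.0 in Col-0-L against 2252 in Col-0-S, with 1949 to 3845 in the lines (0.85). These 3 genes lie next to each other in the gene table, followed by atpI, which had 216 in Col-0-L against 166 in Col-0-S (0.37), and then the ribosomal gene rps2, which was level (0.01).

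The other ATP synthase genes, atpB and atpE, lie side by side elsewhere in the plastid genome. They differed by 0.31 for atpB (5235 in Col-0-L against 4227 in Col-0-S) and by 0.27 for atpE (4631 and 3830). Such differences are the rule at their brightness: among the 100 brightest probe sets of the array 97 were higher in Col-0-L, with a median of 0.26, and among the 500 brightest 383, with a median of 0.12. After quantile normalization atpB stood at 0.00 and atpE at -0.04, while atpF, atpH and atpA kept 0.84, 0.68 and 0.59. The list median was then 0.48, and the list was no longer called shifted.

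For atpF, atpH and atpA the low arrays were Col-0-S and KO-54. KO-54 had 1426, 953 and 1949 for these genes in that order, and the other 5 lines 2129 to 2515 for atpF, 1965 to 2350 for atpH and 3147 to 3845 for atpA. Col-0-S was thus below every array but KO-54 for atpH and atpA and below every array for atpF. KO-54 was also the array with the highest actin 3' to 5' ratio (29.5). That ratio was 10.9 in Col-0-S and 9.98 in Col-0-L. Col-0-L was above all lines for atpH and atpA and below KO-30 for atpF. The part of RNA quality in the difference was not tested.

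Photosystem genes of the plastid followed with smaller differences. Of 45 plastid photosynthesis genes, 36 were higher in Col-0-L and the median was 0.21; after quantile normalization 30 were higher and the median was 0.08. At 1.5-fold 4 were higher, including the 3 ATP synthase genes above, and 1 was lower, the dim ndhF. The shares were 6.02% and 5.46% of all probe sets. In the brightest 2 level groups, which held 42 of the 45 genes, they were 0.583% and 1.28%. The fourth was psbB, for a core antenna protein of photosystem II, with 1286 in Col-0-L against 855 in Col-0-S (0.59). Its neighbours psbT (0.21), psbN (0.51), psbH (0.32), petB (0.43) and petD (0.26) were all higher too. The photosystem I core gene psaA had 3234 in Col-0-L against 2259 in Col-0-S (0.52), but the adjacent psaB differed by 0.28. Of the photosystem II reaction centre genes, psbD had 0.43 and psbA 0.22. After quantile normalization psaB was at 0.01, psbC at 0.05, psbA at 0.05, psaA at 0.31 and psbH at 0.15, while psbB was at 0.54 and psbD at 0.33.

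Cytochrome b6f genes were divided, with 3 of 6 higher. petG (0.51), petB (0.43) and petD (0.26) were higher, and petA (-0.27), petN (-0.25) and petL (-0.24) lower in Col-0-L. After quantile normalization petB stood at 0.10, petG at 0.52 and petD at 0.26. NDH complex genes were level as a list, with a median of 0.08 over 10. Within it ndhD had 2840.1 in Col-0-L against 2127 in Col-0-S (0.42, or 0.20 after quantile normalization), and ndhF, a very dim probe set here, 6.28 and 15.8 (-0.88). The large Rubisco subunit gene rbcL was level, with 720.1 in Col-0-L against 686 in Col-0-S (0.07).

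Plastid genes for gene expression did not share this direction. The 15 ribosomal protein genes were level with a median of -0.10, and 11 of them were lower in Col-0-L, among them rps18 (-0.45), rpl20 (-0.34) and rps19 (-0.31), while rps4 was higher (0.24). The RNA polymerase genes spread widely. rpoA had 212 in Col-0-L against 409 in Col-0-S, with 249 to 589 in the lines (-0.94), so that Col-0-L was below all 6 lines. rpoB had 63.1 in Col-0-L against 42.0 in Col-0-S (0.54), while rpoC1 (0.16) and rpoC2 (-0.11), next to it in the genome, differed little. The protease gene clpP was higher (0.35) and the intron maturase gene matK level (-0.04). Both clpP and rps4 were among the 200 brightest probe sets, of which 181 were higher in Col-0-L, with a median of 0.22. In the gene order rpoA stands directly after petD, so that a gene higher and a gene far lower in Col-0-L were neighbours.

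**Figure D4:**
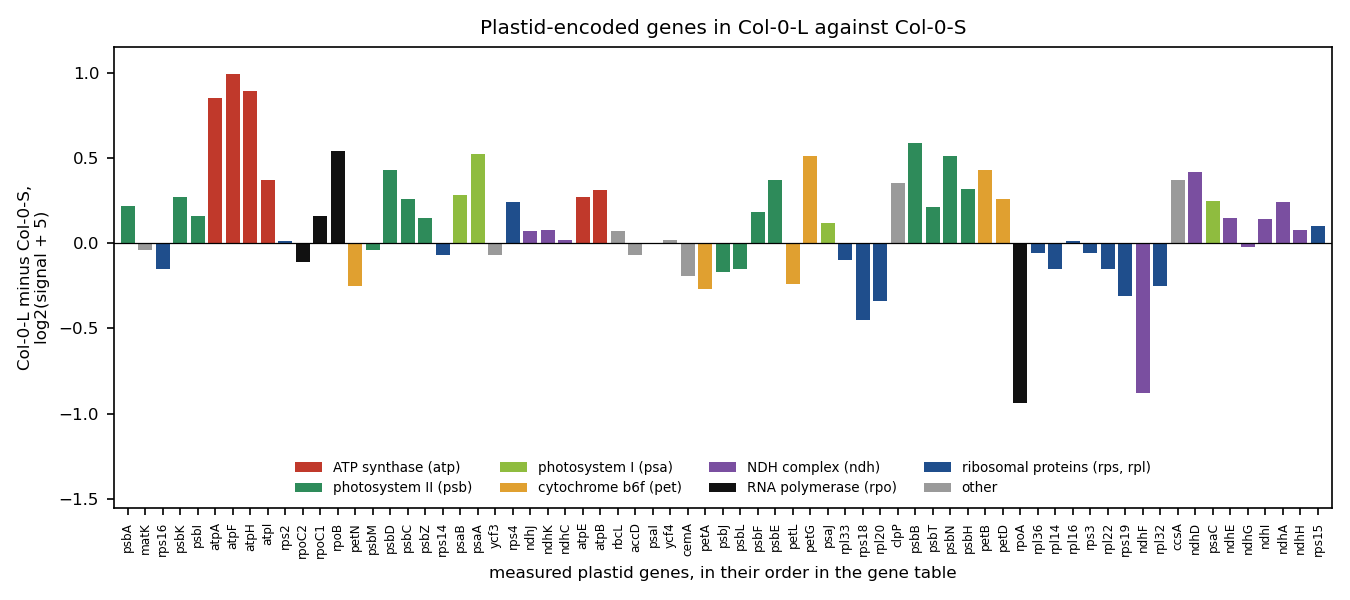
Differences (vertical axis, Col-0-L minus Col-0-S in log2(signal + 5)) of the measured plastid genes, placed in their order in the gene table (horizontal axis, no distance) and coloured by complex. The tallest bars are atpF, atpH and atpA side by side, with 0.85 to 0.99, and the deepest are rpoA at -0.94 and ndhF at -0.88; most ribosomal protein genes lie slightly below 0.

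Nuclear photosynthesis genes were higher in Col-0-L, but not after scalings that take their brightness into account. Of 8 genes for photosystem, antenna and ATP synthase subunits, 7 were higher, with a median of 0.27. The antenna genes LHCB4.1 (4740.2 in Col-0-L against 3958 in Col-0-S) and LHCB4.2 (4206 and 3400.5) differed by 0.26 and 0.31, and ATPC1, the nuclear gene for a further ATP synthase subunit, by 0.38 (3278 and 2515). LHCB4.3, a related antenna gene, went the other way with 467 in Col-0-L against 577 in Col-0-S (-0.30). Quantile normalization brought the median to 0.02, with 5 of 8 higher, and a centring on probe sets of like level brought it to 0.03.

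Carbon fixation genes behaved alike. RCA, which activates Rubisco, had 4030.4 in Col-0-L against 3081 in Col-0-S (0.39), and HPR, a photorespiratory reductase gene, 2297 and 1848 (0.31). PRK (0.11) and SBPASE (0.10), both of the Calvin cycle, differed less, and the median of the 4 genes was 0.21 as deposited and 0.02 after quantile normalization. The mean of this list was above all 6 lines on both wild-type arrays.

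Chlorophyll synthesis genes had the smallest median size of difference of the 69 lists. The 9 nuclear genes had a median difference of 0.00 and a median size of 0.03, beside 0.18 for all probe sets. PORB, for the light-dependent reductase of the pathway, had 3168 in Col-0-L against 2665 in Col-0-S (0.25). CHLM had 985 in Col-0-L against 994 in Col-0-S (-0.01), HEMB1 551 and 539 (0.03) and HEME2 498 and 562 (-0.17). The 13 organelle RNA editing factor genes had a median of -0.03. None of them was past 1.5-fold, and OTP81 had the largest difference (-0.53).

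Mitochondria-encoded genes had a median of 0.20 over 21 probe sets of 14 genes, with 15 higher. The value leaned on 1 gene: nad1, a complex I subunit gene, has 7 probe sets, which ran from -0.22 to 0.54. With 1 probe set per gene the median was 0.11. nad4 had 236 in Col-0-L against 309 in Col-0-S (-0.38), and ccb382, a cytochrome c maturation gene, 263 and 255 (0.05).

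Wall-loosening genes differed in both directions. The 27 expansin and XTH genes had a median of 0.00 and spread from XTH18 (0.749 in Col-0-L against 16.0 in Col-0-S, -1.87) to XTH20 (9.73 and 0.451, 1.43), both dim. Brighter members were EXPA16 with 48.3 in Col-0-L against 87.5 in Col-0-S (-0.80), XTH16 with 71.5 and 115 (-0.65), EXLA2 with 28.3 and 44.5 (-0.57), and, in the opposite direction, EXPA8 with 313 and 230.1 (0.44). EXLA1, given above, was with them on the lower side. XTH32 (-0.02), EXPA4 (0.09) and EXPB3 (0.16) were nearly equal on the wild-type arrays. The mean over the 18 expansin and expansin-like genes was the same to within 0.01 on Col-0-L and Col-0-S (both 5.37 in log2(signal + 5)) and above all 6 lines (4.92 to 5.33), while single members differed between the wild types in both directions.

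Cellulose and secondary wall genes had a median of -0.06 over 31. COB, which guides cellulose orientation, had 535 in Col-0-L against 616 in Col-0-S (-0.20), and CSLC04 was its largest bright difference. The endoglucanases of this list ranged from GH9B5 (-0.65) to GH9B11 (0.94), both dim, with GH9B7 at 0.00. The trichome birefringence-like family, whose members acetylate wall polymers, was level with a median of -0.01, and its brightest genes TBL45 (-0.01), TBL25 (0.13), TBL36 (0.04) and TBL18 (0.04) hardly differed. Its dim member TBL34 differed by -0.82.

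Cytoskeleton genes were close to equal. Of 9 tubulin and actin genes none was past 1.5-fold: TUA6 had 1149 in Col-0-L against 1206 in Col-0-S (-0.07), TUB5 630 and 591 (0.09), TUB6 571 and 535 (0.09) and TUB9 506 and 514 (-0.02), and TUB7 had the largest difference (-0.41). In the wider list of 23 cell division and histone genes the median was 0.05. The linker histone gene HIS1-3 had 245 in Col-0-L against 174 in Col-0-S (0.48), and CDC27a, of the anaphase-promoting complex, was very dim with 2.30 and 14.0 (-1.38).

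Gibberellin signalling genes had the highest median of the first set, 0.51 over 5 members, just short of being called shifted. The receptor genes GID1C (48.0 in Col-0-L against 30.1 in Col-0-S, 0.59) and GID1B (44.8 and 30.02, 0.51) and the F-box gene SLY2 (18.4 and 9.82, 0.66) were higher in Col-0-L. Of these, GID1C in Col-0-S was below all lines (42.2 to 48.4), while Col-0-L lay inside their range. The brighter members differed less: the receptor gene GID1A had 222 in Col-0-L against 209.6 in Col-0-S (0.08), and the F-box gene SLY1 93.8 and 112 (-0.24). The list mean was within the range of the lines in Col-0-L and below it in Col-0-S.

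Ethylene response factor genes had the lowest median, -0.47, but only 3 were measured. SHN3, a regulator of cuticle wax, had 2.92 in Col-0-L against 14.4 in Col-0-S (-1.30), ORA47, of the jasmonate response, 69.0 and 97.4 (-0.47), and TINY2 24.8 and 25.7 (-0.04). For SHN3 and ORA47 Col-0-L was below all lines. Auxin genes had a median of -0.02 over 16, with IAA20 at 1.60 in Col-0-L against 9.67 in Col-0-S (-1.15) and the brighter ILR3 (0.11) and IAA18 (-0.18) nearly equal.

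Flavonoid and anthocyanin genes were mixed, with 2 of 5 higher and 3 lower in Col-0-L. DFR, for the reductase that opens the anthocyanin branch, had 37.7 in Col-0-L against 71.6 in Col-0-S, with 42.9 to 78.4 in the lines (-0.84). UF3GT, a flavonoid glycosyltransferase gene, had 16.3 in Col-0-L against 35.8 in Col-0-S, with 21.1 to 60.0 in the lines (-0.93). For both, Col-0-L was below all 6 lines and Col-0-S inside their range. The flavonol glycosyltransferase gene UGT78D1 (0.18) and CHIL (0.03) differed little and UGT78D2 by -0.28, which left the list median at -0.28 over 5 genes.

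Jasmonate and ethylene response genes were mixed, with a median of 0.07 over 24, of which 16 were higher and 8 lower in Col-0-L. At 1.5-fold 2 were higher, up to 0.70, and 3 lower, beside 6.02% and 5.46% of all probe sets. Besides PDF1.2 and PDF1.2b, the thionin gene THI2.1 had 48.8 in Col-0-L against 83.0 in Col-0-S (-0.71) and the lectin gene JAL23 156 and 243 (-0.62). THI2.2, a thionin relative, went the other way with 86.1 in Col-0-L against 66.2 in Col-0-S (0.35), both above the lines (37.8 to 61.8). EIN3, the master regulator of ethylene responses, had 518 in Col-0-L against 419 in Col-0-S (0.30), outside the 425 to 486 of the lines on either side. The brightest members, the defensin-like genes LCR69 (0.03) and LCR68 (-0.01), were equal.

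Calcium and touch response genes spread from CML38 (-0.77) to PUB15 (0.72) around a median of -0.08. CML41, another calcium sensor gene, had 39.9 in Col-0-L against 62.5 in Col-0-S (-0.59) and the zinc finger gene STZ 459 and 549.7 (-0.26), and for both Col-0-L was below all 6 lines. CML30 was higher, with a difference of 0.50.

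Senescence genes and genes of the WRKY regulators were level by the size rule. YLS5 had 254 in Col-0-L against 232 in Col-0-S (0.13), WRKY53, a senescence regulator, 211 and 189.6 (0.15), SAG101 52.5 and 63.5 (-0.25) and WRKY6 30.05 and 31.2 (-0.05). SAG29 differed more, with 17.2 in Col-0-L against 32.1 in Col-0-S (-0.74). Over 7 measured WRKY genes the median was 0.06, with ZAP1 at 0.07, WRKY20 at 0.06 and WRKY47 at -0.24, while the dim WRKY42 was at 0.73. The senescence mean was 6.00 in Col-0-L against 6.15 in Col-0-S, with 6.12 to 6.49 in the lines, and the WRKY mean 5.66 and 5.58, against 5.64 to 5.98.

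Autophagy genes were level as well, with a median of -0.09 over 10 and a mean of 7.66 in Col-0-L against 7.73 in Col-0-S, with 7.72 to 8.15 in the lines. The bright ATG8-family genes ATG8F (1137 in Col-0-L against 1092 in Col-0-S), APG8H (737 and 816), ATG8C (289.5 and 255) and APG8A (257 and 266) differed by 0.06, -0.15, 0.18 and -0.05, and the largest difference was that of ATG8H (-0.44). Protease genes had a median of -0.06 over 20. The vacuolar processing enzyme gene GAMMA-VPE had 1308 in Col-0-L against 994 in Col-0-S (0.39), CYS1 854 and 847 (0.01), and the dim subtilase gene SBT4.12 8.08 and 0.492 (1.25).

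**Figure D5:**
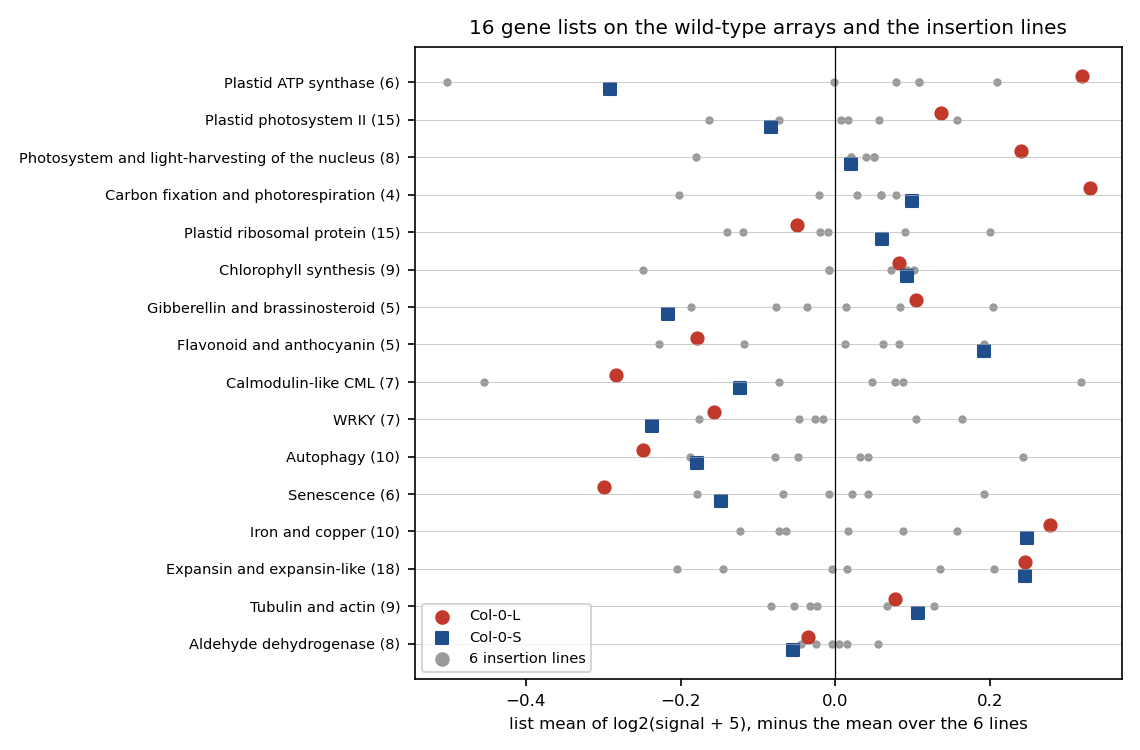
List means of log2(signal + 5), minus the mean over the 6 insertion lines (horizontal axis), for 16 lists with their number of genes in brackets. Red circles are Col-0-L, blue squares Col-0-S and grey points the lines. The wild types lie farthest apart for the plastid ATP synthase (0.61), and both lie above all lines for carbon fixation, iron and copper and expansin genes.

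Cold and drought response genes were among the level lists, with a median of 0.09 over 8. COR15A had 1898 in Col-0-L against 1989 in Col-0-S (-0.07), COR47 1982 and 1771 (0.16), COR15B 1566 and 1326 (0.24) and RD2 993 and 968 (0.04). COR27, a gene of the evening and of cold, had 179.6 in Col-0-L against 245 in Col-0-S (-0.44), and Col-0-L lay below all lines (225 to 321). Of the clock genes, GI had 480.4 in Col-0-L against 402 in Col-0-S (0.25) and TIC 182 and 180.4 (0.01).

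Redox genes were level with a median of -0.01 over 17, apart from MSRB5 and PRXR1 given above; GRXC2 (-0.01), PRXIIF (0.00) and TRXF2 (-0.07) were equal on the wild-type arrays. SAPX, the stromal ascorbate peroxidase gene, had 217 in Col-0-L against 295 in Col-0-S (-0.44). Glutathione transferase genes were mixed with a median of 0.07 over 13, from GSTU26 (-0.45) to GSTU21 (0.81), and the brightest differed by -0.15 for GSTU20 and by 0.20 for GSTL3. Sulphur assimilation genes hardly differed, with -0.06 for SIR, 0.13 for APS4, -0.08 for APS3 and 0.19 for OASA2.

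Large enzyme families of secondary metabolism had medians slightly above the 0.02 of all probe sets, of which 12057 of 22746 were higher in Col-0-L. Of 47 UDP-glycosyltransferase genes, 34 were higher in Col-0-L, with a median of 0.11, and 29 were higher after quantile normalization. UGT88A1 (0.16), UGT74B1 (0.13), UGT71C4 (0.11) and UGT87A2 (0.45) were the brightest, and the dimmer UGT76E2 (0.79) and UGT85A7 (0.78) differed most. Of 24 cytochrome P450 genes, 14 were higher (median 0.10), and the dim CYP71B38 was past 2-fold with 10.3 in Col-0-L against 1.51 in Col-0-S (1.24). CYP71B26 (0.18) and CYP71B6 (-0.05) were the brightest of that family.

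Bright sugar genes were close to equal. The starch kinase gene PWD (-0.03 by its brighter probe set), the branching enzyme gene SBE2.2 (0.00) and the transporter genes SWEET11 (-0.12) and SWEET17 (-0.16) were close to equal, and the list of 22 had a median of -0.05. Dim SWEET genes differed more, with SWEET7 at 0.93, SWEET14 at 0.92 and SWEET6 at -0.53. Iron and copper genes had a median of 0.17 over 10: the copper chaperone gene CCS had 209.9 in Col-0-L against 154 in Col-0-S (0.43), MTP11 198 and 189.6 (0.06), and the dim NRAMP5 differed by -0.75. Their mean was 4.87 in Col-0-L against 4.84 in Col-0-S, above the 4.47 to 4.75 of the lines. Both wild types were above all lines for AT1G47400 (26.2 in Col-0-L against 22.9 in Col-0-S, 0.17) and AT5G05250 (22.6 and 35.6, -0.56). CCS lay inside the range of the lines on both.

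Several enzyme families differed little. Aldehyde dehydrogenase genes, 8 in number and all bright, had a median size of difference of 0.09, with ALDH11A3 (0.31) as the largest and ALDH2C4 (-0.07), ALDH10A8 (-0.04) and ALDH6B2 (-0.10) below 0. Ubiquitin-conjugating enzyme genes had a median of 0.02 over 12, with UBC28 at 1717 in Col-0-L against 1301 in Col-0-S (0.40), UBC30 at -0.17, UBC29 at 0.00 and UBC19 at -0.26, while the dim UBC31 was at 0.73. Ubiquitin-specific protease genes had a median of 0.09 over 12, with UBP24 (0.23), UBP23 (-0.02), UBP15 (0.05) and UBP16 (0.31) as the brightest. Subunit genes of the nuclear RNA polymerases leaned lower, with a median of -0.14 over 12 and NRPB6B (-0.46), NRPB6A (-0.26), NRPB7 (-0.17) and NRPB12 (-0.15) as the brightest. Common reference genes differed by 0.20 for GAPC2, 0.15 for PEX4, -0.14 for AT2G28390 and -0.11 for AT4G34270.

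Vesicle traffic genes were lower in Col-0-L at 12 of 18, with a median of -0.18, and their list mean (6.32 in Col-0-L against 6.49 in Col-0-S) was below all lines in Col-0-L (6.45 to 6.59). VPS20.1 had 92.0 in Col-0-L against 135 in Col-0-S (-0.53), while the brightest, VPS46.2 (0.10) and VPS2.1 (-0.16), differed little. In 4 of the 69 lists the gap between the wild-type means was larger than the range over the 6 lines: vesicle traffic, ethylene response factors, bHLH genes and ubiquitin-conjugating enzymes. The bHLH list held 5 genes, all of them higher in Col-0-L, with MYC4 at 72.5 in Col-0-L against 57.0 in Col-0-S (0.32), MYC3 at 0.09 and the dim ALC at 0.96. For the ubiquitin-conjugating enzymes the gap was 0.07 and the range 0.06.

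Dim regulatory families contributed single genes past 2-fold and flat medians. Of 42 MADS-box probe sets, AGL57 (10.0 in Col-0-L against 1.05 in Col-0-S, 1.31), AGL79 (1.08 by 1 of its 2 probe sets, with -0.07 by the other) and AGL80 (1.84 and 9.94, -1.13) were past 2-fold, and the median was 0.06. The flowering regulators AGL24 (60.7 in Col-0-L against 67.3 in Col-0-S, -0.14) and AGL42 (77.1 and 70.2, 0.13), the brightest of the flowering and bolting list, were close to equal, as were FY (0.14) and SNZ (0.11). Of its dim members, FD (8.26 and 3.36, 0.67) and AGL19 (11.1 and 5.78, 0.58) were higher in Col-0-L and SMZ lower (-0.22). For AGL19 the wild types lay on either side of all 6 lines. BZIP34 (-1.21), PRA1.G1 (-1.08), TET4 (-1.02), scpl31 (-1.21) and scpl40 (1.68) were the members past 2-fold in the bZIP, PRA1, tetraspanin and carboxypeptidase families. Each of them had a signal under 13 on both wild-type arrays. The families' medians were 0.05, -0.14, 0.08 and 0.04 in the order bZIP, PRA1, tetraspanin and carboxypeptidase, and the bright BZIP53 (545 in Col-0-L against 658 in Col-0-S, -0.27), PRA1.B1 (0.27), TET8 (-0.32) and TET3 (0.31) were within 1.5-fold.

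The difference between the wild types was set against each insertion line's deviation from the other 5 lines. Over the 9098 bright probe sets the correlation across probe sets was 0.26 for KO-56, 0.15 for KO-07, 0.08 for KO-02, -0.07 for KO-54, -0.08 for KO-40 and -0.20 for KO-30. Probe sets are not independent and each value rests on the same wild-type pair, so these are descriptions.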

How the data were processed

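Total RNA of 8 Arabidopsis rosette samples was hybridised to 1 ATH1 array each, an Affymetrix array of short oligonucleotides. The authors deposited one intensity (signal) per probe set, and the submitters' processing notes name MAS5 as the tool; the trimmed mean, with 2% taken off each end, was 100.01 on every array, so the arrays had been scaled. Genome build and software versions are not given in the sources used here. The 64 control probe sets of 22810 were left out. Differences were taken as Col-0-L minus Col-0-S in log2(signal + 5), 5 being the rounded 20th percentile of all signals (Python 3.11.15, numpy 2.4.6, pandas 2.3.3). With 1 array each, precision is limited by the number of arrays and no test was run. The calculation was tested on simulated data.

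Genes were named from the platform annotation: 13513 probe sets had 1 gene symbol, for 11933 of them a locus code only, 503 had several and 8730 were not listed; 13436 were found in the RefSeq gene table (TAIR10.1), which gave the plastid gene order. The members and lists were chosen with earlier results of these data known. A further 34 lists, the removal of 35 symbols matched only by synonym, the naming of bright genes and the centring on 201 probe sets of like level were chosen after the values were seen. Named were the 12 largest differences in each direction above the 30th percentile of mean level, the 12 in each direction in the brightest of 5 equal level groups, list members past 2-fold or else the brightest 2 (4 in level lists), and genes a list is known for. Lists needed 3 measured members (5 in added families, apart from the plastid RNA polymerase), which left out 15 of the 50 first lists. Several probe sets of a gene were all counted; of 152 such genes, 0 had probe sets past 1.5-fold in opposite directions. The alternatives were other pseudocounts, a filter on dim probe sets, 3 other scalings, a 1.5-fold threshold and 1 probe set per gene. Promoter and probe sequences were not used here.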

Additional observations from a re-analysis of the deposited data

How the results depend on the processing

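No paired analysis was possible because each group holds 1 array, all with the same replicate number. With no replicates, a median was counted as moved where it moved by more than the SD over the 6 insertion lines, which differ in genotype. No called value changed sign, but several list medians near 0 did: among those given below, the cellulose, beta-glucosidase, tetraspanin and RALF-like lists with the filter, the ubiquitin-conjugating list when centred, and the reference genes in both other scalings. The counts of probe sets at least 2-fold higher and lower in Col-0-L, 344 and 307, were 1207 and 1133 with a pseudocount of 1, 4 and 14 with a pseudocount of 21, 55 and 73 with the filter on dim probe sets, and 1370 and 1242 at 1.5-fold. They stayed within 1.5 times under median centring (284 and 360), quantile normalization (285 and 321) and centring on probe sets of like level (323 and 328). The share of higher among all called was 52.8% as deposited, 44.1% centred, 47.0% after quantile normalization, 49.6% at like level and 22.2% with a pseudocount of 21. Of the lists, the medians that moved were as follows. With a pseudocount of 1 they were 0.20 for glutathione transferases, 0.34 for bHLH and -0.26 for XTH genes. With a pseudocount of 21 they were 0.12 for mitochondria-encoded, 0.35 for gibberellin and brassinosteroid, 0.08 for bHLH and 0.20 for mitochondrial complex I genes. With the filter they were 0.25 for mitochondria-encoded, 0.20 for glutathione transferase, 0.02 for cellulose, 0.09 for bHLH, -0.08 for beta-glucosidase, -0.19 for XTH, -0.06 for tetraspanin, -0.07 for RALF-like and 0.30 for cation exchanger genes. Median centring gave -0.02 for ubiquitin-conjugating enzymes and -0.10 for aldehyde dehydrogenases. Quantile normalization gave 0.02 for nuclear photosystem genes, 0.02 for carbon fixation and -0.07 for reference genes, and centring at like level 0.03, 0.07 and -0.08 for the same lists and 0.13 for mitochondria-encoded genes. With 1 probe set per gene the mitochondria-encoded list had 0.11 and complex I 0.20. The cause of these moves was not tested. Lists called shifted, level and mixed numbered 1, 26 and 42 as deposited, 3, 19 and 47 with a pseudocount of 1, and 0, 30 and 39 after quantile normalization and at like level alike. All 64 genes named for their size of difference and recomputed kept their sign in each setting (49 of 49 with the filter), but of 41 past 2-fold only 5 stayed past it with a pseudocount of 21. Dim probe sets hold most of the 2-fold differences, and their depth over background is not known.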

Other observations

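A few gene groups not described above also held bright members with differences between the wild types. Genes of RALF-like peptides, secreted growth and immunity signals, were level as a list (median 0.03 over 11), but RALFL22 had a signal of 152 in Col-0-L against 207 in Col-0-S (-0.43) and RALFL33 had 433 and 541 (-0.32). RALFL34 (-0.10) and RALFL32 (-0.04) differed less. Among receptor kinases, FER, the receptor of such peptides, had 405 in Col-0-L against 438 in Col-0-S (-0.11), and BIK1, an immune kinase gene, had 111 and 138 (-0.31). All 3 measured genes of that list were lower in Col-0-L, with a median of -0.23.

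Beta-glucosidase genes were mixed (median 0.08 over 20), with BGLU44 at 1490 in Col-0-L against 1259 in Col-0-S (0.24) and BGLU33 at 295 and 234 (0.33). Of 7 glutamate receptor-like genes, 6 were higher in Col-0-L, with GLR3.5 at 38.2 in Col-0-L against 26.5 in Col-0-S (0.45) and GLR2.7 and GLR3.3 at 0.13 and 0.14. In the brightest level group, 2311 probe sets had no gene listed here, and 1 of them was at least 2-fold higher and 5 at least 2-fold lower in Col-0-L.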
